A study of Mus musculus with 6 samples.

Results

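Double positive cells were defined as T cells with at least 1 unique molecular identifier (UMI, a tag that counts each captured RNA molecule once) of Tmem176a and at least 1 of Tmem176b. The cells were thus chosen by the measured counts of both genes, which are given below as a description only. By this rule 126 of 12818 cells were double positive, a share of 0.983% (exact 95% interval 0.820 to 1.17). A further 454 cells (3.54%) held UMIs of exactly 1 of both genes, 171 with Tmem176a and 283 with Tmem176b, and 12238 cells held neither. The study sorted TCR-b+ T cells from B16-F10 tumors, a transplanted mouse melanoma line, in Foxp3-EGFP-DTR mice, and profiled them by droplet single-cell RNA sequencing. In these animals the diphtheria toxin receptor (DTR) is made under the control of Foxp3, so that diphtheria toxin (DTx) removes Foxp3+ Treg cells, and this allele is carried by the 3 samples given PBS as well as the 3 given DTx. The cells came from 6 libraries, numbered 1 to 6 in the cell names, and no label links a library number to a sample. PBS and DTx were therefore not compared. The treatment of each library is not given, so whether differences between libraries go with treatment was not tested. All differences below are counts with intervals for counting error only, and no p-value was computed.

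Tmem176a and Tmem176b encode small proteins that cross intracellular membranes several times, are related to the MS4A family and act as cation channels. They are neighbours that are transcribed away from each other, and both are known from dendritic cells, macrophages and lymphocytes of the type 17 kind. The type 17 program is shared by Th17 cells, some innate-like T cells and some innate lymphoid cells, which make the cytokines IL-17A, IL-17F and IL-22 and respond to IL-23 and IL-1.

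In GRCm38, both genes lie on chromosome 6. Tmem176a (ENSMUSG00000023367.14) spans 48840919 to 48847071 on the plus strand, and Tmem176b (ENSMUSG00000029810.15) spans 48833818 to 48841496 on the minus strand. The annotated genes overlap by 578 bases, from 48840919 to 48841496, on opposite strands. The strand setting of the counting was not given in the sources used here, and without it reads in this overlap cannot be assigned to a gene. The promoter windows of the pair, 250 bases before to 50 bases after each start in RefSeq's annotation of GRCm38.p6, are shown because both genes choose the cells and their windows share 155 bases, from 48841233 to 48841387. Capitals mark the shared bases, which the 2 lines give from opposite strands.
Tmem176a, chr6:48841233-48841532, plus strand: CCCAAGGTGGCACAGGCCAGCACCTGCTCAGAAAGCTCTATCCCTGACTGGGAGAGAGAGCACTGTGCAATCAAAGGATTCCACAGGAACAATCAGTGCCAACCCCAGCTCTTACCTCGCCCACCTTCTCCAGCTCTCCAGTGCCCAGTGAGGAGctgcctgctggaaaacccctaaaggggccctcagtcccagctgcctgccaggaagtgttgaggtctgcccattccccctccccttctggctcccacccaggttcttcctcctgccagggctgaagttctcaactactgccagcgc
Tmem176b, chr6:48841088-48841387, minus strand: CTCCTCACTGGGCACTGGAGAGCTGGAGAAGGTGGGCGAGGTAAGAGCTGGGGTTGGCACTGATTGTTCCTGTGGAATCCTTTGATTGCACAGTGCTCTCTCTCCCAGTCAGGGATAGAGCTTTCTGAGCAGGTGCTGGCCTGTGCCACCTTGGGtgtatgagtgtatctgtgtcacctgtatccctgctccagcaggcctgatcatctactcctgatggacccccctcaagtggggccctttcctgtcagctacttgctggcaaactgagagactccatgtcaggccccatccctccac
The letters AGGTCA, a half-site that nuclear receptors such as REV-ERBα can bind, were searched on both strands. They occurred in 0 of the 5 annotated windows of both genes, against 16.3% of all 32851 windows of this length.

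The UMIs that chose the cells were few. Tmem176a was seen with 1 UMI in 75 of the 126 double positive cells and with at most 6, and Tmem176b with 1 UMI in 67 and with at most 8. At the edge of the rule, 39 double positive cells held 1 UMI of each gene, and 454 cells on the other side of it held UMIs of 1 gene and none of the other. When the shares of cells with each gene were multiplied within library and depth quartile, 16.3 cells with both would have been counted. Double positive cells were deeper than the rest, with a median of 1903.5 UMIs and 878.5 genes against 1236 UMIs and 576 genes in cells with neither gene. Their share was 0.249% in the lowest depth quartile of the libraries and 2.19% in the highest. Median mitochondrial shares of UMIs were 0.987% and 0.878%. All comparisons below were therefore made within library and depth quartile: the UMIs expected of a gene are its share of UMIs in cells with neither gene of the same library and quartile, times the UMIs of the double positive cells, without those of Tmem176a and Tmem176b.

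Library 1 held 52 double positive cells (2.45% of its cells, 1.83 to 3.2), library 2 held 5 (0.189%, 0.0615 to 0.441), library 3 held 25 (1.10%, 0.715 to 1.62), library 4 held 11 (0.622%, 0.311 to 1.11), library 5 held 24 (1.21%, 0.775 to 1.79) and library 6 held 9 (0.443%, 0.203 to 0.840). The interval of library 1 lay above those of all other libraries, and library 1 gave 41.3% of the double positive cells. Library 3 had the shallowest cells, with a median of 610 UMIs, and library 4 the deepest, with 2499.5. Thinning to 1000 UMIs kept the 8113 cells that had as many and left out 4705 shallower cells, 13 of them double positive, and it kept 468 of the 2268 cells of library 3. Among the kept cells, thinned to this depth, libraries 1 and 3 had shares of 1.89% and 1.92%, and libraries 2, 4, 5 and 6 had 0.133%, 0.238%, 0.371% and 0.142%. Of the barcodes, 76 occurred in more than 1 library, and 1 double positive cell carried such a barcode.

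**Figure D1:**
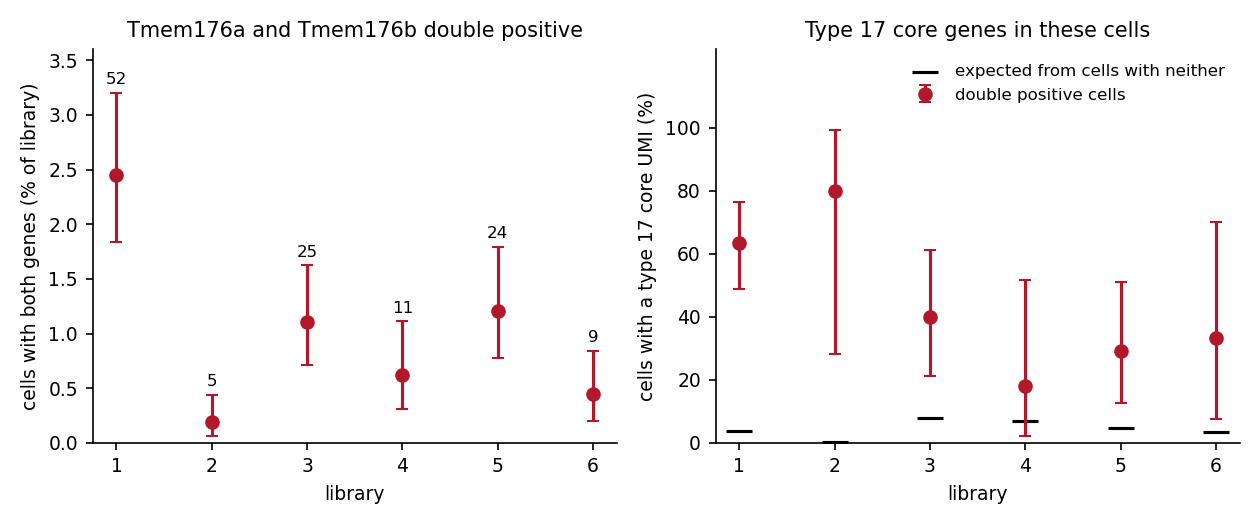
The left panel plots the share of cells with both Tmem176a and Tmem176b UMIs in each library, with the number of cells above each point, and the right panel the share of these cells with a UMI of a type 17 core gene beside the expected share (black bars). Error bars are exact 95% intervals. Library 1 stands highest on the left at 2.45%, and on the right the points run from 18.2% in library 4 to 80.0% in library 2, all above expectation.

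The cells were checked against markers of T cells and of the other cells in which both genes are known. A UMI of Cd3d, Cd3e or Cd3g, the signalling chains of the T cell receptor, was found in 119 double positive cells (94.4%, 88.9 to 97.7), where 95.4% was expected. Cd3e gave 391 UMIs where 349 were expected, Cd3g 225 against 219 and Cd3d 236 against 280. Of the αβ receptor constant segments, Trac gave 187 UMIs against 206, Trbc1 34 against 57.8 and Trbc2 110 against 146. The list of αβ receptor and CD3 genes was at 0.932 of expectation (0.881 to 0.986), slightly lower than in cells with neither gene. The monocyte and macrophage list had 0 UMIs in the double positive cells against 3.39 expected, an observed to expected ratio between 0 and 1.09. Of the 11 genes of that list 4 were in the count table, the receptor Csf1r, the lysosomal glycoprotein Cd68, the lipid carrier Apoe and the integrin Itgam. Others, such as Lyz2 and C1qa, were not in it and could not be checked. The 4 genes were each at 0, so 0 of 126 cells held a UMI, which allows a share of cells with a UMI of up to 2.38% (3 counts of 126). Of the dendritic cell list, 4 of 8 genes were in the table and gave 5 UMIs against 7.80 expected, of which Itgax, also carried by T cells, gave 3, the dendritic cell factor Batf3 gave 2 in 2 cells (0.13 expected, ratio 15.6, 1.89 to 56.3) and the regulator Zbtb46 gave 0. The melanoma list had 0 UMIs against 2.40 expected, the B cell list 18 against 30.3, the NK and innate lymphoid list 12 against 26.8 and the stroma list 6 against 7.71. In the NK and innate lymphoid list, the adaptor Tyrobp, the receptor Ncr1 and the growth factor receptor Kit were each at 0. For the MHC class II list the counts were 37 UMIs against 26.9 expected (ratio 1.38, 0.969 to 1.90), with the invariant chain Cd74 at 13 against 14, H2-DMa at 14 against 9.06 and H2-Aa at 3 UMIs in 2 cells against 0.38 (ratio 7.96, 1.64 to 23.3). The cells thus carried T cell transcripts as labelled. Over all 126 cells, no interval of the myeloid, dendritic, melanoma, B cell, NK, stroma and MHC class II lists, each taken as a sum, lay above 1, while those of Batf3 and H2-Aa did. In the 67 double positive cells without a UMI of the type 17 core list described below, the MHC class II interval did lie above 1. That list gave 26 UMIs against 12.4 there (2.09, 1.37 to 3.07). In cells with exactly 1 Tmem176 gene it gave 94 against 65.8 (1.43, 1.15 to 1.75).

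The share of double positive cells with CD8 transcripts alone lay below the share expected for their depth and library, and the share with neither CD4 nor CD8 transcripts lay above it. A Cd8a or Cd8b1 UMI without Cd4 was seen in 21 cells (16.7%, 10.6 to 24.3), where 44.1% was expected, and Cd8b1 gave 47 UMIs against 155 expected. A Cd4 UMI without Cd8 was seen in 16 cells (12.7%, 7.44 to 19.8), where 10.5% was expected, and Cd4 gave 31 UMIs against 24.7. None of Cd4, Cd8a and Cd8b1 was seen in 81 cells (64.3%, 55.3 to 72.6), where 42.9% was expected, at a median depth of 1573 UMIs. Both Cd4 and CD8 transcripts were seen in 8 cells (6.35%, 2.78 to 12.1), where 2.46% was expected, and the median depth of these 8 cells was 5296 UMIs. No doublet caller was run, and whether some of the 8 droplets held 2 cells was not tested. By library the share with neither CD4 nor CD8 transcripts was 73.1%, 100%, 76.0%, 54.5%, 33.3% and 55.6% in libraries 1 to 6, and 38 of the 81 cells came from library 1. Foxp3, the Treg cell factor, was found in 6 double positive cells, all of library 1, where 2.63 were expected over all libraries. Among cells with neither gene it was found in 46, 30, 15, 0, 1 and 1 cells of libraries 1 to 6. Of the 6 double positive cells with Foxp3, 4 also held a type 17 core UMI and 4 held both Cd4 and CD8 transcripts, and the median of the 6 was 4925.5 UMIs.

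**Figure D2:**
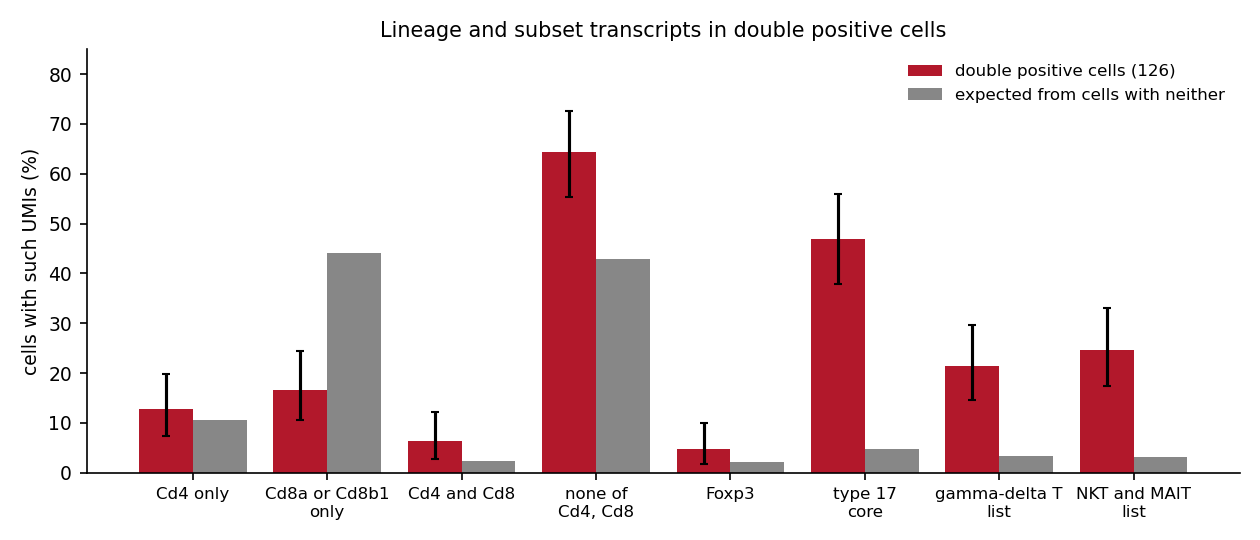
Shares of double positive cells with UMIs of lineage and subset genes (red, exact 95% intervals) are plotted beside the shares expected from cells with neither gene of the same library and depth quartile (grey), in percent of cells. CD8 transcripts without Cd4 were at 16.7% against 44.1%, and type 17 core transcripts at 46.8% against 4.79%.

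The type 17 core list holds the cytokines Il17a, Il17f and Il22, the receptors Il23r, Il1r1, Il17re, Ccr6 and Ltb4r1, and the kinase Blk. At least 1 UMI of these 9 genes was found in 59 of 126 double positive cells (46.8%, 37.9 to 55.9), where 4.79% was expected. The share was 22.0% in cells with exactly 1 Tmem176 gene and 2.96% in cells with neither. As a background, the share in cells with CD8 transcripts and neither Tmem176 gene was 1.19% at a median depth of 1698 UMIs. The double positive cells with a core UMI had a median of 2197 UMIs. By library the share was 63.5% of 52 cells, 80.0% of 5, 40.0% of 25, 18.2% of 11, 29.2% of 24 and 33.3% of 9, so that it was above expectation in all 6 libraries and highest in libraries 1 and 2. The interval in library 4, 2.28 to 51.8%, contained the expected share. The share fell to 35.1% when library 1 was left out. After thinning to 1000 UMIs per cell, 46 of the 113 double positive cells kept still met the rule, and 32.6% of them held a core UMI. At least 2 different core genes were seen in 24 double positive cells (19.0%, 12.6 to 27.0), where 0.250% was expected, and 1 cell held 6 of them.

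Summed over the list, 129 UMIs were observed where 10.1 were expected, a ratio of 12.7 (10.6 to 15.1). By library this ratio was 20.2, 632, 6.25, 3.73, 7.94 and 24.5, the value for library 2 resting on an expected count near 0. All 9 genes were above expectation and all by at least 2-fold, with an interval clear of 1. Over all 3608 genes that reached 20 UMIs observed plus expected, 94 (2.61%) were at least 2-fold higher with an interval clear of 1 and 58 (1.61%) at least 2-fold lower, and the median log2 ratio was 0.05. Of the core list only Il22 and Ltb4r1 reached this count, and their median log2 ratio was 3.19. That median has no value without library 1, where both genes were under the count, and it ranged from 1.59 to 3.14 without each other library, the lowest without library 5. Il22 still reached the count only without library 2, which gave 3.14. Without library 3, 4, 5 or 6 the value was that of Ltb4r1 alone, so this range is not a spread of the list. Over all 9 genes the median was 3.77.

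Among the cytokines, Il17a gave 18 UMIs in 8 cells (1.57 expected), with 6, 0, 5, 3, 1 and 3 UMIs in libraries 1 to 6. Il22, which acts on epithelial cells, gave 20 UMIs in 9 cells (0.45 expected), with 7, 0, 3, 1, 1 and 8 by library. Il17f gave 4 UMIs in 4 cells (0.13 expected). Il17a and Il22 were each above expectation in 5 of 6 libraries, and library 2, with 5 double positive cells, gave none.

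Among the receptors, Il23r gave 16 UMIs in 15 cells (0.53 expected), with 12, 2, 1, 0, 1 and 0 by library. Il17re, a subunit of the IL-17C receptor, gave 15 UMIs in 14 cells (0.08 expected), with 8, 2, 3, 1, 1 and 0 by library, while only 11 UMIs of it were found in the 12238 cells with neither Tmem176 gene. Ccr6, the receptor of CCL20, gave 13 UMIs in 13 cells (0.49 expected), none of them in libraries 4, 5 and 6. The IL-1 receptor Il1r1 gave 6 UMIs (0.31 expected). Ltb4r1, a receptor of leukotriene B4 that other effector T cells also carry, had the smallest ratio of the list, 26 UMIs against 6.35 expected (4.09, 2.67 to 6.0), and was seen in 2.24% of cells with neither Tmem176 gene. Blk, a Src family kinase known from B cells and from γδ T cells that make IL-17, gave 11 UMIs in 11 cells (0.22 expected), with 8, 1 and 2 in libraries 1, 2 and 3. Apart from Ltb4r1, receptor and kinase transcripts thus lay mostly in libraries 1 to 3, whereas those of Il17a and Il22 were also found in libraries 4 to 6.

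**Figure D3:**
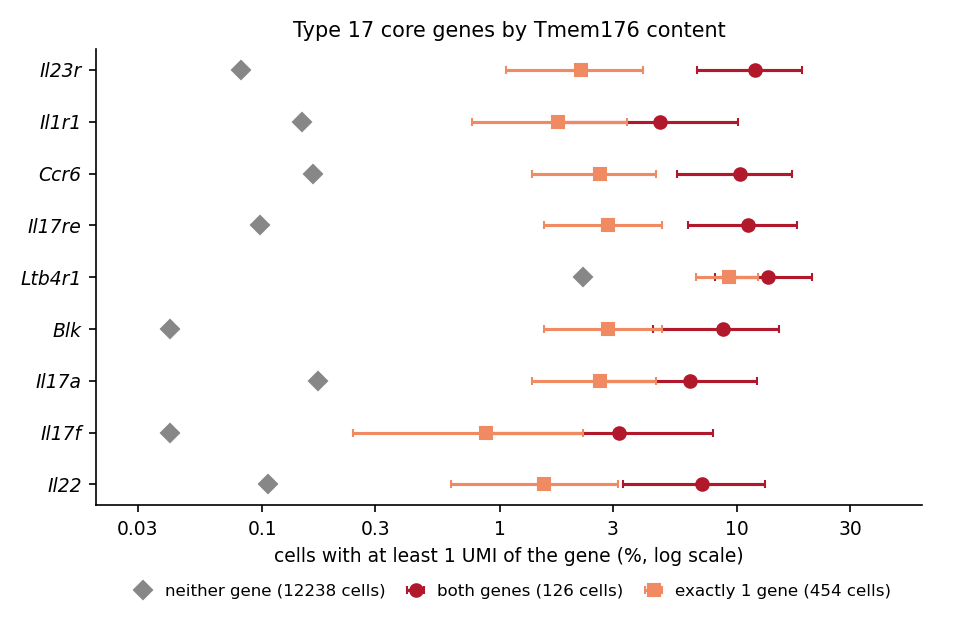
The share of cells with at least 1 UMI of each type 17 core gene is plotted in percent on a log scale for cells with both Tmem176 genes (red circles), with exactly 1 (orange squares) and with neither (grey diamonds). Bars are exact 95% intervals. For every gene the order was the same, as for Il23r with 11.9%, 2.20% and 0.0817%.

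Read the other way, 521 cells of the table held a type 17 core UMI, and 159 of them (30.5%, 26.6 to 34.7) held a UMI of Tmem176a or Tmem176b. Of the 29 cells with Blk, 24 held at least 1 Tmem176 gene (82.8%, 64.2 to 94.2). The shares were 25 of 35 cells for Il23r (71.4%), 27 of 39 for Il17re (69.2%) and 20 of 41 for Il17a (48.8%). Ltb4r1 again stood apart, with 59 of 333 cells (17.7%, 13.8 to 22.3). Among all 12818 cells, 580 held a Tmem176 gene.

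Type 17 core transcripts were found in double positive cells of every lineage gate. They were seen in 6 of 16 cells with Cd4 (37.5%, 15.2 to 64.6), 12 of 21 with CD8 transcripts (57.1%, 34.0 to 78.2), 3 of 8 with both and 38 of 81 with none (46.9%, 35.7 to 58.3). The intervals overlapped. In cells of the same gates with neither Tmem176 gene the shares were 6.96%, 1.19%, 11.5% and 3.25%. Among the 21 double positive cells with CD8 transcripts, Il17a and Il22 were each seen in 2. In the 16 cells with Cd4, Ccr6, Il17re, Il1r1 and Blk had 0 UMIs, as did Lmo4 and Avpi1, described below, and fewer than 1 UMI of each was expected there.

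The wider type 17 list, of genes that other activated T cells also use, gave 865 UMIs against 433 expected (ratio 2.0, 1.87 to 2.13). Of its 11 genes with enough UMIs 5 were at least 2-fold higher and 0 lower. Serpinb1a, a protease inhibitor, gave 43 UMIs against 8.32, with 19, 1, 5, 7, 8 and 3 by library. The IL-7 receptor Il7r gave 209 UMIs in 89 cells against 90.1, with 116, 10, 29, 13, 36 and 5 by library. Both were above expectation in all 6 libraries. The transcription factor Maf gave 72 UMIs against 35.1 and the IL-18 receptor chain Il18r1 gave 69 against 33.2. The nuclear receptor gene Rora was at 101 UMIs against 59.2 (1.71, 1.39 to 2.07), under 2-fold, and the factors Batf and Stat3 were at 37 against 49.6 and 30 against 36.9. The aquaporin Aqp3 gave 16 UMIs against 2.73, under the filter on counts. Sox13, a factor of γδ T cells, gave 2 UMIs in the double positive cells and 0 in all cells with neither gene.

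The gene with the largest ratio after Il22 among the 12 highest was Pxdc1 (ENSMUSG00000021411.16, chromosome 13, 34627834 to 34653486, minus strand), which encodes a protein with a phosphoinositide-binding PX domain. It gave 69 UMIs in 35 double positive cells against 3.14 expected, a log2 ratio of 4.25, with 50, 8, 6, 3, 2 and 0 UMIs in libraries 1 to 6. It was seen in 27.8% of double positive cells, 10.8% of cells with 1 Tmem176 gene and 0.474% of cells with neither. Library 1 thus held most of its UMIs, and the log2 ratio was 3.57 in the other libraries.

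Ramp1, which with a partner forms the receptor of the neuropeptide CGRP and was also on the wider type 17 list, gave 121 UMIs against 14.9 expected (log2 ratio 2.98) and was seen in 63 cells, 50% of all double positive cells. Its UMIs were 82, 4, 13, 3, 10 and 9 by library, above expectation in all 6, and without library 1 the log2 ratio was 2.50. Lmo4, a LIM domain cofactor of transcription, gave 61 UMIs against 9.36 (2.64), with 40, 8, 9, 1, 1 and 2 by library. Ramp1 and Lmo4 were the members of the 12 that exceeded expectation in every library.

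The actin-binding proteins Actn2 and Nebl gave 53 UMIs against 5.45 (log2 ratio 3.17) and 27 against 3.01 (2.97). Actn2 had 25, 4, 4, 4, 16 and 0 UMIs by library, so that library 5 gave 8 of its 36 cells. Both genes are best known from striated muscle. They were the only 2 of the 12 with the AGGTCA half-site in a promoter window. It was found in 2 of the 20 windows of the 12 genes, a share not above the 16.3% of all windows.

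Creatine kinase Ckb gave 47 UMIs against 5.52 (log2 ratio 2.98), with 32 in library 1 and 0 in libraries 4 and 6. Selenop, a selenium transport protein, gave 81 against 12.3 (2.67), with 69 in library 1 and 10 in library 3. Leaving out library 1 brought the log2 ratios to 2.27 for Ckb and 1.35 for Selenop. Nr1d1, the circadian repressor REV-ERBα, gave 23 UMIs against 1.63 (3.47), although set against cells with 1 Tmem176 gene alone its log2 ratio was -0.056. Avpi1 and Ly6g5b gave 21 against 3.08 (2.59) and 24 against 4.41 (2.32). The neutrophil chemokine Cxcl2 gave 52 against 10.0 (2.32), but these lay in 9 cells of libraries 1 and 3, with up to 11 UMIs in 1 cell. Selenop and Cxcl2 UMIs thus lay mainly in libraries 1 and 3, whereas Ckb was also above expectation in library 2, with 2 UMIs against 0.09, and in library 5, with 6 against 1.01.

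**Figure D4:**
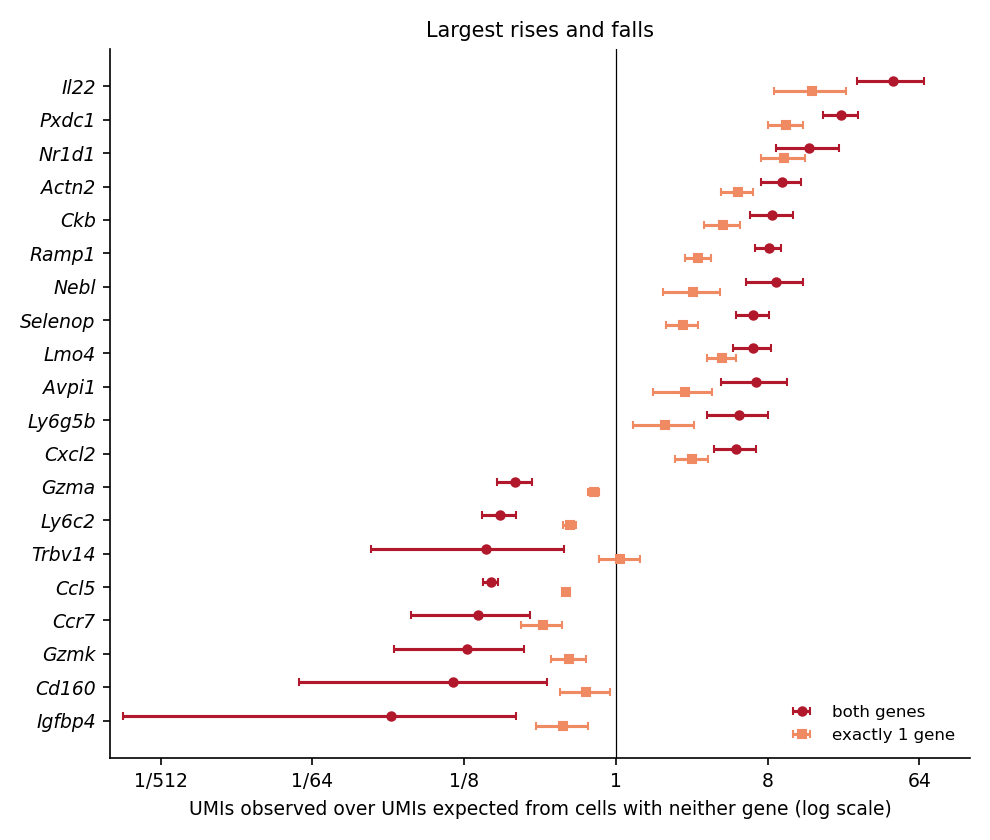
UMIs observed over UMIs expected from cells with neither gene are plotted on a log scale for the 12 genes with the largest and the 8 reported genes with the smallest ratios in double positive cells, for cells with both Tmem176 genes (red circles) and with exactly 1 (orange squares). Bars are exact Poisson 95% intervals of the observed UMIs. The 12 upper genes lie above 1 in both kinds of cells, and of the 8 lower genes Trbv14 alone is not below 1 in cells with 1 gene.

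The 8 lowest genes reported included genes of cytotoxic and of recirculating T cells. Ccl5, a chemokine of effector CD8+ T cells, gave 399 UMIs against 2223 expected (log2 ratio -2.48), with 300, 0, 15, 9, 70 and 5 UMIs by library where 1143, 7.42, 310, 195, 423 and 144 were expected. It was below expectation in every library, and the log2 ratio without library 1 was -3.44. The granzyme Gzmk gave 6 UMIs against 46.1 (-2.84). Gzma, another granzyme, gave 68 against 270 (-1.98), with 0, 0, 0, 1, 65 and 2 by library where 8.19, 0.05, 3.35, 54.3, 174 and 30.6 were expected, and 51 of its UMIs lay in 1 cell. Cd160, a receptor of cytotoxic lymphocytes, gave 2 against 18.6 (-2.93), and Ly6c2, a surface marker of memory CD8+ T cells, 75 against 368 (-2.29). The homing receptor Ccr7, which leads T cells into lymph nodes, gave 7 UMIs against 46.6 (-2.65). Igfbp4, a binding protein of insulin-like growth factors found in naive T cells, gave 1 UMI against 21.9 (-3.90), nearly all of them expected in libraries 1 to 3. The T cell receptor segment Trbv14 gave 3 UMIs against 17.8 (-2.39). It was seen in 2 cells (1.59%, 0.193 to 5.62), where 4.90 cells (3.89%) were expected, so that counted by cells the interval contained the expected share.

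Of the 9 genes of the CD8 effector list with enough UMIs, 9 were at least 2-fold lower, and the list gave 866 UMIs against 3590 (ratio 0.241, 0.225 to 0.258). The list includes Cd8a and Cd8b1. Its perforin gene Prf1, under the filter on counts, gave 6 UMIs against 5.89. Gzmb gave 94 against 189 and was below expectation in 4 of 6 libraries, with 39 against 37.2 in library 1. Nkg7, a cytotoxic granule protein, gave 136 UMIs against 387. The checkpoint receptor list was at 77 UMIs against 140 (0.552, 0.435 to 0.690), with Pdcd1, encoding PD-1, at 15 against 41.7. The Th1 list was at 156 against 216 (0.723, 0.614 to 0.846) with the cytokine Ifng at 109 against 136, and the Th2 list at 96 against 121 (0.793, 0.643 to 0.969) with the factor Gata3 at 44 against 41.5. Counted by cells, a Th1 list UMI was seen in 33.3% (25.2 to 42.3), where 52.1% was expected. A Th2 list UMI was seen in 41 cells (32.5%, 24.5 to 41.5), where 25.2% was expected, so the lower Th2 sum did not come with fewer cells. The naive list gave 355 UMIs against 394 (0.901, 0.810 to 1). In it Ccr7 was low, as were the factor Lef1 with 33 against 51.4 and Dapl1, under the filter on counts, with 1 against 18.2. The intervals of Klf2, S1pr1, Satb1 and Tcf7 contained 1. The factor Klf2 gave 181 UMIs against 157, the exit receptor S1pr1 34 against 26.6, Satb1 63 against 53.3 and Tcf7 36 against 40.7. The proliferation list gave 158 UMIs against 206 (0.768, 0.653 to 0.897), with ratios of 0.484, 0, 0.0726, 2.40, 0.601 and 1.52 in libraries 1 to 6. Such a UMI was held by 20 cells (15.9%, 9.97 to 23.4), where 19.5% was expected, so that counted by cells the interval contained the expected share.

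The Treg list gave 384 UMIs against 335 (1.15, 1.03 to 1.27), and of its 7 genes with enough UMIs the actin-capping protein Capg alone was at least 2-fold higher, with 127 UMIs against 58.8. Of its 10 genes 3 were above expectation and 7 below. Its ratios were 1.41, 2.82, 1.29, 0.739, 0.870 and 0.952 in libraries 1 to 6. Ctla4 gave 67 against 67.3 and Ccr8 gave 16 against 17.8. The CD4 helper list gave 473 UMIs against 317 (1.49, 1.36 to 1.63), with the CD40 ligand Cd40lg at 119 against 54.6 and the costimulatory receptor Icos at 217 against 133, both above expectation in all 6 libraries. The tissue residency list gave 573 UMIs against 448 (1.28, 1.18 to 1.39). In it the αE integrin Itgae gave 24 UMIs against 5.72, of which 18 were in library 1, while Rgs1 gave 307 against 274, Itga1 1 against 5.27 and Zfp683 1 against 3.23. For the relatives of Tmem176 in the MS4A family the counts were 236 UMIs against 367 (0.643, 0.564 to 0.731), led by Ms4a4b with 147 against 242. The inflammasome list was at 94 against 89.5 (1.05, 0.849 to 1.29).

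**Figure D5:**
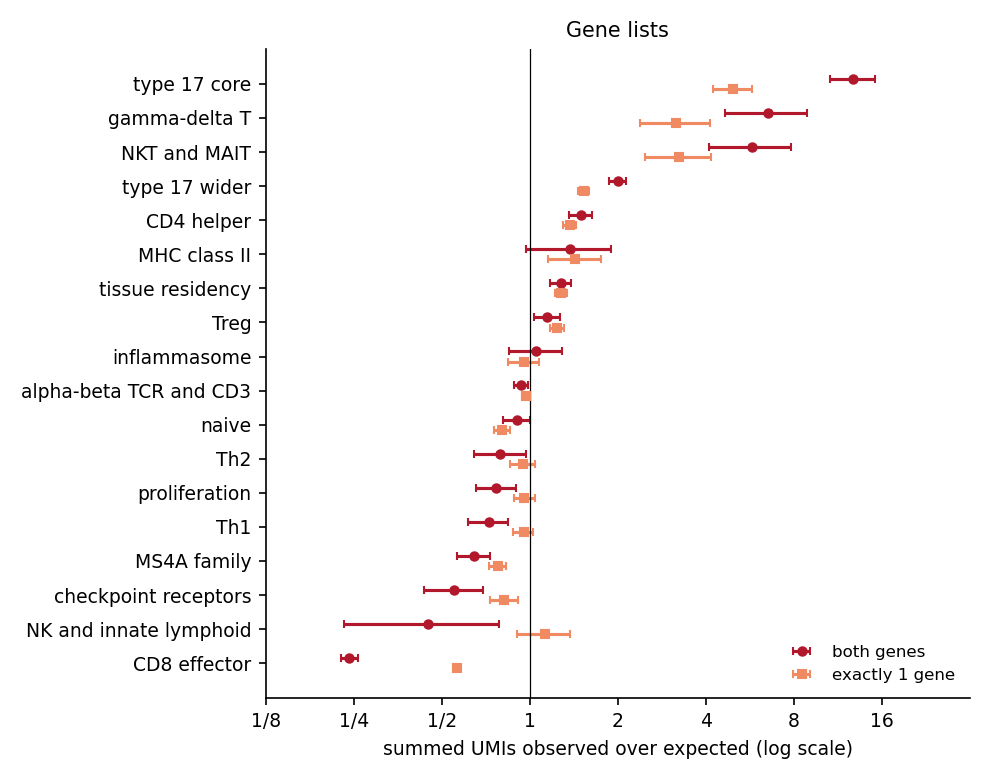
Summed UMIs observed over expected are plotted on a log scale for 18 gene lists, in cells with both Tmem176 genes (red circles) and with exactly 1 (orange squares), with exact Poisson 95% intervals of the observed UMIs. The type 17 core list stands highest at 12.7 and the CD8 effector list lowest at 0.241 among the lists drawn.

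The double positive cells included cells with transcripts of innate-like T cells. Zbtb16, which encodes PLZF, the factor of NKT and MAIT cells, gave 12 UMIs in 11 cells against 0.59 expected, with 9, 1 and 2 in libraries 1 to 3 and 0 in libraries 4 to 6. Sdc1, a heparan sulfate proteoglycan, gave 17 UMIs in 14 cells against 0.93, 15 of them in library 1. Of the 24 cells with either, 16 also held a type 17 core UMI and 20 held neither Cd4 nor CD8 transcripts. The NKT and MAIT list gave 40 UMIs against 6.94 (5.76, 4.12 to 7.85), with ratios of 8.4, 29.2 and 7.32 in libraries 1 to 3 and 0 UMIs in libraries 4 to 6. Among its receptor segments, Traj18, used by NKT cells, gave 5 UMIs against 0.70, and Trav1, used by MAIT cells, 4 against 1.76, while the NK receptor Klrb1c gave 1 against 2.67.

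Transcripts of γ chain constant segments were found in the double positive cells. Tcrg-C1, a constant segment of the γ chain, gave 15 UMIs in 13 cells against 0.82 expected, with 9, 1, 1, 1, 2 and 1 by library, and Tcrg-C2 gave 6 against 1.13. Trdc, the constant segment of the δ chain, was at 0 UMIs where 0.66 were expected, so that a lower level than in other cells was not detectable at this depth. All 13 cells with Tcrg-C1 held a UMI of Trac, Trbc1 or Trbc2, the constant segments of the αβ receptor, and 9 held a type 17 core UMI. Over the double positive cells, 101 held a UMI of Trac, Trbc1 or Trbc2. The γ chain constant segments are near-identical copies, and reads could be divided among them uncertainly.

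A Trbv segment was seen in 101 double positive cells, where 96.4 were expected, and the cells were spread over many segments. The most frequent were Trbv13-2 in 21 cells (17.9 expected), Trbv13-3 in 16 (7.39) and Trbv1 and Trbv19 in 14 each (6.33 and 12.4). Trav segments were seen in 50 cells, where 61.0 were expected. Trav6-7-dv9 led with 7 cells (4.36 expected).

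The higher genes were not limited to cells with a visible type 17 transcript. The 12 highest and 8 lower genes were picked in all 126 double positive cells. The 67 cells without a core UMI are part of these, so the directions in them were largely set by the picking. In these 67 cells, 11 of the 12 highest genes were above expectation with an interval clear of 1, at a median log2 ratio of 2.49. The other was Il22, which is on the core list and so had no UMI in them. Pxdc1 gave 29 UMIs against 1.33 there, Actn2 30 against 2.78 and Ramp1 46 against 6.78. The 8 lower genes were below expectation in them as well, all 8 with an interval clear of 1. The CD8 effector ratio was 0.247 in these cells, against 0.241 in all double positive cells, and the wider type 17 ratio was 1.61 against 2.0.

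The 12 highest and 8 lower genes, picked as the largest differences of double positive cells, differed less in cells with exactly 1 Tmem176 gene. Not every list followed this. The Treg list was at 1.24 in cells with 1 gene against 1.15 in double positive cells, and the NK and innate lymphoid list at 1.12 against 0.45. All 12 highest genes were above expectation in cells with 1 gene with an interval clear of 1, at a median log2 ratio of 1.85 against 2.97 in the double positive cells, and 7 of the 8 lower genes were below. The type 17 core ratio was 4.95 (4.23 to 5.75) in them and the CD8 effector ratio 0.564 (0.549 to 0.578). The melanoma list gave 27 UMIs in 4 of the cells with 1 gene against 3.39 expected. Among the double positive cells, the 87 with 3 or more Tmem176 UMIs had a Pxdc1 ratio of 25.4 (19.4 to 32.6) and the 39 with 2 UMIs one of 10.8 (4.68 to 21.3). For Ltb4r1 these ratios were 5.67 (3.51 to 8.66) and 1.89 (0.613 to 4.41). The intervals overlapped for both genes, and the split used the UMIs that chose the cells. Of the 12 highest genes Ckb, Lmo4 and Avpi1 went the other way, with 8.07 and 9.83, 6.21 and 7.48, and 6.63 and 7.20.

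Immediate early genes, which are switched on within minutes of stimulation, were also higher in the double positive cells. This list was drawn up after the values were seen. Of its 11 genes 9 were at least 2-fold higher, and summed they gave 5040 UMIs against 2098 (2.40, 2.34 to 2.47). Egr1 gave 384 UMIs against 66.9, Jun 735 against 216 and Fosb 126 against 37.2. By library the summed ratio was 3.31, 1.74, 2.04, 1.02, 1.15 and 2.28, so that it was largest in library 1 and its interval contained 1 in library 4. The share of cells with type 17 core transcripts was also lowest in library 4, and the part of these genes in the other differences was not tested.

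Leaving out library 1, which held 52 of the 126 cells, lowered the number of genes at least 2-fold higher from 94 to 45 and that of lower genes from 58 to 43. Without each of the other libraries the number of higher genes was between 92 and 115. Foxp3, whose UMIs all lay in library 1, turned from a log2 ratio of 1.15 to -1.18. Within the cells of the CD4 gate alone 9 genes and within those of the CD8 gate alone 26 genes were at least 2-fold higher, in 16 and 21 double positive cells.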

How the data were processed

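TCR-b+ cells were profiled with droplet chemistry that reads the start of transcripts. Per the methods, the authors mapped reads to mm10, merged libraries with cell ranger aggr and filtered cells in Seurat, whereas the labels name mm9. The deposited table holds UMI counts of 14597 genes in 12818 cells, not normalized, with 201 to 2494 genes per cell. Per library 1916305 to 5127776 UMIs were present. Whether aggr equalized depth is not given in the sources used here. No doublet caller was run.

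Strata were 6 libraries by 4 depth quartiles. Expected UMIs came from cells with neither gene. Intervals were exact (Poisson for UMIs, Clopper-Pearson for shares, 95%) and cover counting error of the observed value only. Log2 ratios had 0.5 added to both counts. Expected shares of cells were not scaled for the depth that remained within quartiles (mean 2476 UMIs in double positive cells, mean stratum median 2013). The method was tested on simulated data. The named genes were the type 17 core genes, lineage genes and the 3 most abundant of each other list, and the 12 largest rises and 8 largest falls with at least 20 UMIs, UMIs in at least 5 cells and 1 direction in every library with at least 10 double positive cells; other genes named were chosen after their values were seen, and some items are not reported here. Members and lists were chosen with earlier results of these data known. Gene positions came from GENCODE on GRCm38 and promoters from RefSeq. Python 3.11.15, NumPy 2.4.6, SciPy 1.17.1, pandas 2.3.3 and matplotlib 3.10.9 were used.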

Additional observations from a re-analysis of the deposited data

How the results depend on the processing

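No paired analysis was possible because no library could be assigned to a sample, so PBS and DTx samples could not be paired; double positive cells were compared with other cells of the same library throughout. Matching by depth deciles or by library alone left all main results within their spread. Leaving out the 26 cells with UMIs of a short list of macrophage, B cell and melanoma markers removed none of the double positive cells and so could hardly move the results. Csf1r was the only macrophage gene of that short list in the count table. Requiring 2 UMIs of each gene left 23 cells, with a share of 0.179%, 48 genes higher, 23 lower and type 17 core transcripts in 52.2%. Thinning the cells with at least 1000 UMIs to that depth gave a share of 0.567%, 61 genes higher, 27 lower, CD8 transcripts in 8.70% and type 17 core transcripts in 32.6%. Against cells with 1 gene, 61 genes were higher and the type 17 core median log2 ratio was 0.96. A minimum of 50 UMIs gave 39 higher and 26 lower genes, and no minimum gave 470 and 175. The CD4 gate alone gave 9 higher genes and the CD8 gate alone 26. The set of genes that reached the count changed with the cells and the minimum used. The numbers of higher and lower genes here and below are therefore not shares of 1 set.

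Leaving out each library in turn gave shares of double positive cells from 0.692% to 1.19%, 45 to 115 higher and 43 to 57 lower genes, a type 17 core median from 1.59 to 3.14, CD4 gate shares from 8.82% to 18.9%, CD8 gate shares from 14.7% to 18.9% and type 17 core shares from 35.1% to 51.0%, with library 1 giving the lowest share, the fewest genes and the lowest type 17 share. The type 17 core median had no value without library 1, with thinned cells, with 2 UMIs of each gene, with 50 UMIs or in either gate, where no core gene reached the count. Without library 3, 4, 5 or 6 it was the value of Ltb4r1 alone.

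Directions turned in log2 ratios of few UMIs. Foxp3 was at -0.15 with thinned cells, -0.50 against cells with 1 gene, -0.18 in the CD8 gate and from -1.18 (without library 1) to 1.35 with each library left out. Il1r1 was at -0.13 with 2 UMIs of each gene and -0.27 in the CD4 gate. In the CD4 gate Ccr6 was at -0.29, Il17re at -0.17, Cd3e at -0.0063, Ccr7 at 0.86, Lmo4 at -1.14, Avpi1 at -0.86 and Cxcl2 at -0.034, and in the CD8 gate Cxcl2 was at -0.76. Nr1d1 was at -0.056 against cells with 1 gene. The cause was not tested. The depth of 1 to 3 UMIs per cell for most of these genes limits all shares of cells, and a cell without a UMI may still express the gene.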
